A study of Mus musculus with 9 samples.

Results

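Fibroblast and non-collagen matrix genes were followed as a set of 37 genes, given as a list of gene symbols, in RNA from eosinophils sorted from mouse quadriceps muscle. Of the 54146 genes in the table all 37 were found, and all 37 were among the 15886 genes that passed the filter on low counts. By their roles the genes fall into 6 surface receptors and markers, 4 proteoglycans, 5 elastic fibre and microfibril proteins, 3 cross-linking enzymes, 10 adhesive and matricellular proteins, 3 basement membrane proteins and 6 secreted inhibitors and other secreted proteins.

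The study has 9 libraries in 3 groups of 3, all from adult mice. The mdx_IL5Tg group carries both the mdx background and an interleukin-5 (Il5) transgene, the mdx group is dystrophin-deficient, a model of Duchenne muscular dystrophy, with no transgene, and the IL5Tg group carries the transgene. Groups follow the sample titles, since the strain label reads mdx for every library, the IL5Tg ones included. The sources used here do not give the promoter of the transgene or the sex of the mice. Replicates are stated to be biological. The sorted cells were live, carried CD45 and SiglecF, and lacked MHC class II, Gr1 and CD11c.

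Fibroblasts and fibro-adipogenic progenitors, the mesenchymal cells between muscle fibres, make most of the interstitial matrix of muscle. Their secreted proteoglycans, fibronectin and microfibrils organise collagen and elastic fibres, lysyl oxidases cross-link those fibres, and laminin, nidogen and perlecan form the basement membrane around each fibre and capillary. Matricellular proteins such as periostin and tenascin-C are low in resting muscle and are known to increase with injury and in dystrophic muscle. Fibroblasts do not carry CD45, so the gate was not set to collect them.

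Promoter sequences are shown for the genes that moved in opposite directions and stand for the main patterns: Gsn and Pi16, the pair higher in mdx_IL5Tg than in mdx libraries, and Lama2 and Postn, which were lower. Each runs from 250 bases before to 50 bases after a start site in RefSeq (GRCm38.p6), 5′ to 3′ on the gene's strand, with matches to the searched motifs in capitals.
Gsn: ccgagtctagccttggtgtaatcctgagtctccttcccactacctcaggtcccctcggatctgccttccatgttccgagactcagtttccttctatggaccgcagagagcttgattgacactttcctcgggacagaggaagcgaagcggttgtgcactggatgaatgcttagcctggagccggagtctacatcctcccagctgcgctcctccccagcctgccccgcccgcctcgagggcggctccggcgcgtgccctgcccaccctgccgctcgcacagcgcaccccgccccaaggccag
Pi16: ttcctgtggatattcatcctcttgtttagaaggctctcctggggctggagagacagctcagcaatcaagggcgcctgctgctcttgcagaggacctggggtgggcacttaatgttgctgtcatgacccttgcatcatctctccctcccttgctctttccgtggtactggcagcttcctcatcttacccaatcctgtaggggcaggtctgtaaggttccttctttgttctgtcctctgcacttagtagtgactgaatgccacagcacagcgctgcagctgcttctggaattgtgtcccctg
Lama2: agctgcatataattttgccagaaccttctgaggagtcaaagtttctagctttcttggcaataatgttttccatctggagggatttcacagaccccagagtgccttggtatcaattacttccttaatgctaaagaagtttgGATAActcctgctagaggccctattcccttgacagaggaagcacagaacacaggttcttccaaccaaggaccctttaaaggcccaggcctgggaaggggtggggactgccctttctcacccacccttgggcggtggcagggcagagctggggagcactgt
Postn: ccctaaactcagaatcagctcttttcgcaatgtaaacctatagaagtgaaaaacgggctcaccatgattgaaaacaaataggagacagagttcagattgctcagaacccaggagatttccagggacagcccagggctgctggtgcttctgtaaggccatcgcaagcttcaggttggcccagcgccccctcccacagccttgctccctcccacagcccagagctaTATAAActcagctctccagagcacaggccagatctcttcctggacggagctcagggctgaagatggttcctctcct
They lie at chr2:35256109-35256408 on the plus strand for Gsn, chr17:29318632-29318931 on the plus strand for Pi16, chr10:27616893-27617192 on the minus strand for Lama2 and chr3:54360857-54361156 on the plus strand for Postn. RefSeq promoters were matched by symbol for 21 of the 37 genes, which have 26 promoters among 32851. Gsn has 3 of these and Postn 2, and the window shown is the one nearest the gene's outer start. The TATA box letters TATAAA are in capitals in Postn, and the GATA letters GATAA in Lama2. Searched on both strands, with each motif counted on its own and overlaps between motifs kept, TATAAA occurred in 5 of the 26 promoters and in 13.6% of all promoters. The letters GATAA occurred in 6 of the 26 and in 25.4% of all. The STAT letters TTCNNNGAA occurred in 1 of the 26 and in 8.30% of all, and the AP-1 letters TGANTCA in 0 of the 26 and in 7.81% of all. The Gsn and Pi16 windows held a match to none of the 4 motifs, which says only that these letters are not in these windows.

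Total counts per library were 43297860 to 58368300 in mdx_IL5Tg, 29200237 to 41627459 in mdx and 26752800 to 30824798 in IL5Tg. In CPM (counts scaled to a common library total), Il5 was at 664 to 724 CPM in mdx_IL5Tg, 0.265 to 0.402 CPM in mdx and 317 to 523 CPM in IL5Tg, which sets the libraries titled with the transgene apart from the others. Dmd, the dystrophin gene, was at 1.64 to 2.74 CPM in mdx_IL5Tg, 2.74 to 6.93 CPM in mdx and 5.29 to 6.62 CPM in IL5Tg. The mdx_IL5Tg range lay below the IL5Tg range, but the mdx and IL5Tg ranges overlapped. The level of Dmd therefore does not by itself check the mdx part of the titles, and the mdx allele is a point mutation that a gene count does not read directly. The eosinophil genes Ccr3 and Siglecf were at 809 to 1441 CPM and 129 to 584 CPM across the 9 libraries. The library mdx S5 had 0.383% of its counts on mitochondrial genes, against 1.28% to 2.29% in the other libraries, and IL5Tg S7 had a summed level of 12 eosinophil markers of 16140 CPM, against 5990 and 8496 CPM in IL5Tg S8 and S9. Of these sums Prg2 alone gave 6997 CPM in S7 and 1611 and 2690 CPM in S8 and S9. The counts of calls among the 37 genes and among 62 other matrix genes are therefore also given without mdx S5 and IL5Tg S7.

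None of the 37 genes was at 0 in any library, and together they took 0.113% to 0.247% of the counts in mdx_IL5Tg libraries, 0.338% to 0.494% in mdx libraries and 0.109% to 0.169% in IL5Tg libraries. Their summed level was 1942, 2696 and 1303 CPM in mdx_IL5Tg S1, S2 and S3, against 4309, 3305 and 3208 CPM in mdx S4, S5 and S6 and 1494, 1089 and 1687 CPM in IL5Tg S7, S8 and S9. All mdx libraries lay above every library of the other groups, and the mdx_IL5Tg and IL5Tg libraries overlapped. Without Gsn and Pi16 the sum was 1138, 1959 and 679 CPM in mdx_IL5Tg, 4013, 2862 and 2909 CPM in mdx and 1114, 751 and 1224 CPM in IL5Tg. In sorted cells as in any bulk RNA, fewer cells of a type and less RNA per cell cannot be told apart.

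**Figure D1:**
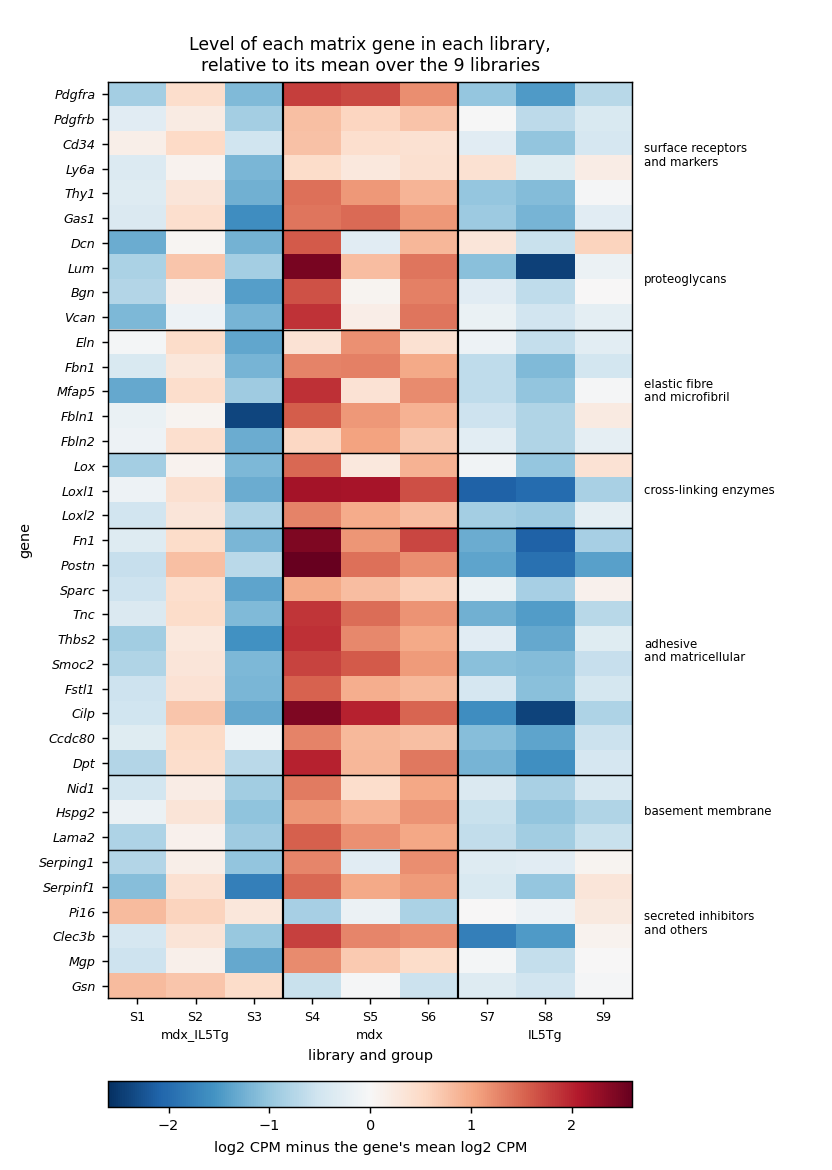
Level of each of the 37 genes (vertical axis, by role) in each of the 9 libraries (horizontal axis, by group), as log2 CPM minus the gene's mean log2 CPM over the libraries (colour scale). Most genes are high in the 3 mdx libraries, while Gsn and Pi16 are highest in the mdx_IL5Tg libraries.

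By group means, 25 of the 37 genes had the order mdx above mdx_IL5Tg above IL5Tg. Another 10 genes, Ly6a, Dcn, Bgn, Vcan, Fbln1, Lox, Sparc, Serping1, Serpinf1 and Mgp, had the order mdx above IL5Tg above mdx_IL5Tg. Gsn and Pi16 had the order mdx_IL5Tg above IL5Tg above mdx. For 33 of the 37 genes the mdx_IL5Tg and IL5Tg libraries overlapped, so the order of those groups is within their spread for most of the list.

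The first comparison, mdx_IL5Tg against mdx, sets the transgene against its absence within the dystrophic background. In mdx_IL5Tg libraries 29 of the 37 genes were lower and 2 were higher than in mdx libraries, and 6 did not pass (edgeR's quasi-likelihood test, Benjamini-Hochberg adjusted p under 0.05 over all tested genes). Of all 15886 genes 11.5% were lower and 10.1% higher by the same rule. The median log2 fold change was -1.59 over the 37 genes and -0.13 over all genes. The mdx_IL5Tg libraries all lay below the mdx libraries for 29 genes, a pattern found in 23.2% of all genes, and all above them for 2 genes, a pattern found in 18.8%.

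Among surface receptors and markers, 4 of 6 were lower in mdx_IL5Tg. Pdgfra, the platelet-derived growth factor receptor that marks fibro-adipogenic progenitors, was at 2.90, 7.40 and 2.43 CPM in mdx_IL5Tg S1, S2 and S3, against 18.7, 17.8 and 12.5 CPM in mdx S4, S5 and S6. The groups did not overlap, and its log2 fold change was -1.94 ± 0.40 (SE, edgeR adjusted p = 0.00759). Pdgfrb, the related receptor of pericytes and fibroblasts, was at 13.3, 18.8 and 8.82 CPM in mdx_IL5Tg against 28.0, 23.96 and 27.4 CPM in mdx, again with no overlap (log2 -0.96 ± 0.26, edgeR adjusted p = 0.0269). Gas1, a membrane-anchored binding protein of Hedgehog ligands, was at 3.79, 6.65 and 1.59 CPM in mdx_IL5Tg against 12.9, 13.5 and 10.7 CPM in mdx (log2 -1.63 ± 0.43, edgeR adjusted p = 0.0221). Thy1, a surface glycoprotein of fibroblasts and T cells, was at 3.04, 4.73 and 1.59 CPM in mdx_IL5Tg against 10.2, 8.33 and 7.07 CPM in mdx (log2 -1.45 ± 0.40). In both the highest mdx_IL5Tg library lay below the lowest mdx library. Cd34, a sialomucin of progenitor and endothelial cells, was at 67.9, 86.6 and 42.5 CPM in mdx_IL5Tg against 103, 82.2 and 80.1 CPM in mdx. Its groups overlapped at mdx_IL5Tg S2, and it did not pass the test (log2 -0.43, edgeR adjusted p = 0.249). Ly6a, the Sca-1 antigen of mesenchymal progenitors and endothelium, was at 15.98, 21.6 and 8.96 CPM in mdx_IL5Tg against 28.5, 24.4 and 27.0 CPM in mdx and did not pass either (log2 -0.78, adjusted p = 0.0735), and as one of a family of similar Ly6 genes its read assignment is uncertain.

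Of the 4 proteoglycans 3 were lower. Vcan, the large chondroitin sulphate proteoglycan versican, was at 6.89, 14.1 and 6.66 CPM in mdx_IL5Tg against 56.6, 17.3 and 40.5 CPM in mdx, with no overlap and a log2 fold change of -2.05 ± 0.41 (edgeR adjusted p = 0.00646). Bgn, biglycan, a decorin relative with a second glycosaminoglycan chain, was at 28.0, 50.8 and 17.5 CPM in mdx_IL5Tg against 149, 49.4 and 117 CPM in mdx (log2 -1.72 ± 0.43, edgeR adjusted p = 0.0201), although mdx_IL5Tg S2 at 50.8 CPM lay just above mdx S5 at 49.4 CPM. Dcn, decorin, which binds collagen fibrils, was at 16.5, 41.8 and 17.2 CPM in mdx_IL5Tg against 122, 32.7 and 72.9 CPM in mdx. Its groups overlapped, since mdx S5 lay below mdx_IL5Tg S2, and its adjusted p of 0.04999 (edgeR) stood at the threshold. The call of Dcn was lost in 10 of the 18 alternatives. Lum, lumican, a collagen-binding relative of decorin, was at 4.05, 11.9 and 3.92 CPM in mdx_IL5Tg against 40.0, 12.6 and 18.8 CPM in mdx and did not pass (log2 -1.85 ± 0.62, edgeR adjusted p = 0.0558), though its groups did not overlap.

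Among elastic fibre and microfibril genes, 3 of 5 were lower. Fbn1, fibrillin, the main microfibril protein, was at 49.9, 80.3 and 28.1 CPM in mdx_IL5Tg against 160.3, 162 and 129 CPM in mdx, a 2.85-fold lower level with no overlap (log2 -1.51 ± 0.32, edgeR adjusted p = 0.00839). Mfap5, a microfibril-associated glycoprotein, was at 1.32, 4.56 and 1.75 CPM in mdx_IL5Tg against 12.4, 4.32 and 7.74 CPM in mdx (log2 -1.69 ± 0.51, edgeR adjusted p = 0.0372). Its groups overlapped, since mdx_IL5Tg S2 lay above mdx S5, and its call was lost in 8 of the 18 alternatives. Fbln1, a fibulin that binds fibronectin and elastic fibres, was at 1.94, 2.29 and 0.418 CPM in mdx_IL5Tg against 6.51, 4.79 and 4.10 CPM in mdx (log2 -1.72 ± 0.51, edgeR adjusted p = 0.0366). Its groups did not overlap, and its call was lost in 10 of the 18 alternatives. Eln, elastin, was at 126, 183 and 51.1 CPM in mdx_IL5Tg against 171, 298 and 171 CPM in mdx. The highest mdx_IL5Tg library lay above 2 of the mdx libraries, and the difference did not pass (log2 -0.83, edgeR adjusted p = 0.141). Fbln2, a fibulin of elastic fibres and basement membranes, did not overlap between the groups but did not pass (log2 -0.93, adjusted p = 0.0755).

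All 3 cross-linking enzymes were lower. Loxl1, which is needed for elastic fibre assembly, was at 4.17, 6.07 and 1.85 CPM in mdx_IL5Tg against 20.3, 20.2 and 14.6 CPM in mdx. Every mdx library lay above the highest mdx_IL5Tg library, and the log2 fold change was -2.19 ± 0.43 (edgeR adjusted p = 0.00604), the largest fall among the 37 genes. Lox, the founding lysyl oxidase, was at 11.8, 23.1 and 9.69 CPM in mdx_IL5Tg against 60.7, 26.3 and 40.6 CPM in mdx (log2 -1.52 ± 0.42, edgeR adjusted p = 0.0266). Loxl2, which acts on collagen of basement membranes, was at 16.02, 27.8 and 12.95 CPM in mdx_IL5Tg against 54.7, 43.9 and 39.3 CPM in mdx (log2 -1.28 ± 0.29, edgeR adjusted p = 0.0115). Neither showed an overlap between the groups.

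Among adhesive and matricellular genes, 9 of 10 were lower, and in all 10 the groups did not overlap. Fn1, fibronectin, which binds integrins and nucleates matrix assembly, was at 86.1, 151 and 48.0 CPM in mdx_IL5Tg against 583, 243 and 362 CPM in mdx. It was 4.17-fold lower (log2 -2.06 ± 0.46, edgeR adjusted p = 0.0122). Postn, periostin, was at 41.1, 108 and 38.2 CPM in mdx_IL5Tg against 377, 167 and 144 CPM in mdx, with mdx S4 far above the other mdx libraries. Its log2 fold change was -1.88 ± 0.46 (edgeR adjusted p = 0.0177). Tnc, tenascin-C, a glycoprotein of injured tissue, was at 31.7, 57.1 and 18.6 CPM in mdx_IL5Tg against 149, 114 and 92.7 CPM in mdx (log2 -1.73 ± 0.36, edgeR adjusted p = 0.00790). Cilp, cartilage intermediate layer protein, a matrix protein known to bind TGF-beta, fell by 2.16 on the log2 scale, with 10.3, 24.3 and 5.85 CPM in mdx_IL5Tg against 79.4, 58.5 and 42.3 CPM in mdx. In each of these genes mdx S4 was the highest library and mdx_IL5Tg S2 the highest of its group. Smoc2, a calcium-binding relative of SPARC, was at 4.80, 10.3 and 3.68 CPM in mdx_IL5Tg against 28.0, 25 and 17.8 CPM in mdx (log2 -1.91 ± 0.36, edgeR adjusted p = 0.00488). Thbs2, a thrombospondin that limits vessel growth, was at 8.16, 18.5 and 5.14 CPM in mdx_IL5Tg against 56.4, 36.0 and 30.3 CPM in mdx (log2 -1.95 ± 0.45). Dpt, dermatopontin, a decorin-binding protein, Fstl1, a secreted follistatin-like glycoprotein, and Ccdc80, a secreted matrix-bound protein, had log2 fold changes of -1.71, -1.45 and -0.92. Sparc, which binds collagen and calcium, was at 212, 419 and 118 CPM in mdx_IL5Tg against 613, 534 and 471 CPM in mdx and did not pass (log2 -1.11 ± 0.39, edgeR adjusted p = 0.0614).

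All 3 basement membrane genes were lower. Lama2, the laminin alpha chain of the muscle fibre basement membrane, was at 9.72, 18.3 and 8.88 CPM in mdx_IL5Tg against 49.4, 38.4 and 33.9 CPM in mdx. The groups lay well apart, and its adjusted p of 0.00212 (edgeR, log2 -1.72 ± 0.27) was the smallest of the 37 genes. Hspg2, perlecan, a heparan sulphate proteoglycan of basement membranes, was at 178, 250 and 96.2 CPM in mdx_IL5Tg against 442, 372 and 444 CPM in mdx (log2 -1.26 ± 0.28). Nid1, nidogen, which links laminin to type IV collagen, was at 43.9, 70.1 and 32.8 CPM in mdx_IL5Tg against 156, 84.6 and 123 CPM in mdx (log2 -1.31 ± 0.29).

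Secreted inhibitors and other secreted proteins split, with 4 lower and 2 higher. Gsn, gelsolin, an actin-severing protein with a cytoplasmic and a plasma form, was at 663, 619 and 527 CPM in mdx_IL5Tg against 253, 371 and 254 CPM in mdx. All mdx_IL5Tg libraries lay above all mdx libraries, and it was 2.06-fold higher (log2 1.04 ± 0.19, edgeR adjusted p = 0.00421). Pi16, a peptidase inhibitor that marks a population of fibroblasts in many mouse tissues, was at 140.2, 119 and 96.6 CPM in mdx_IL5Tg against 43.5, 71.2 and 44.7 CPM in mdx. It too showed no overlap and was 2.23-fold higher (log2 1.16 ± 0.21, edgeR adjusted p = 0.00446). Serpinf1, the angiogenesis inhibitor PEDF, was at 6.24, 17.7 and 3.94 CPM in mdx_IL5Tg against 38.1, 26.8 and 29.0 CPM in mdx (log2 -1.75 ± 0.49). Serping1, the inhibitor of complement C1, Mgp, the calcification inhibitor matrix Gla protein, and Clec3b, the plasminogen-binding protein tetranectin, had log2 fold changes of -1.34, -1.29 and -1.71. Serping1 overlapped between the groups because mdx S5, at 6.86 CPM, lay below mdx_IL5Tg S2, at 9.39 CPM. Gsn made up 34.2%, 22.9% and 40.5% of the summed level of the 37 genes in mdx_IL5Tg S1, S2 and S3, against 5.87%, 11.2% and 7.93% in mdx S4, S5 and S6.

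**Figure D2:**
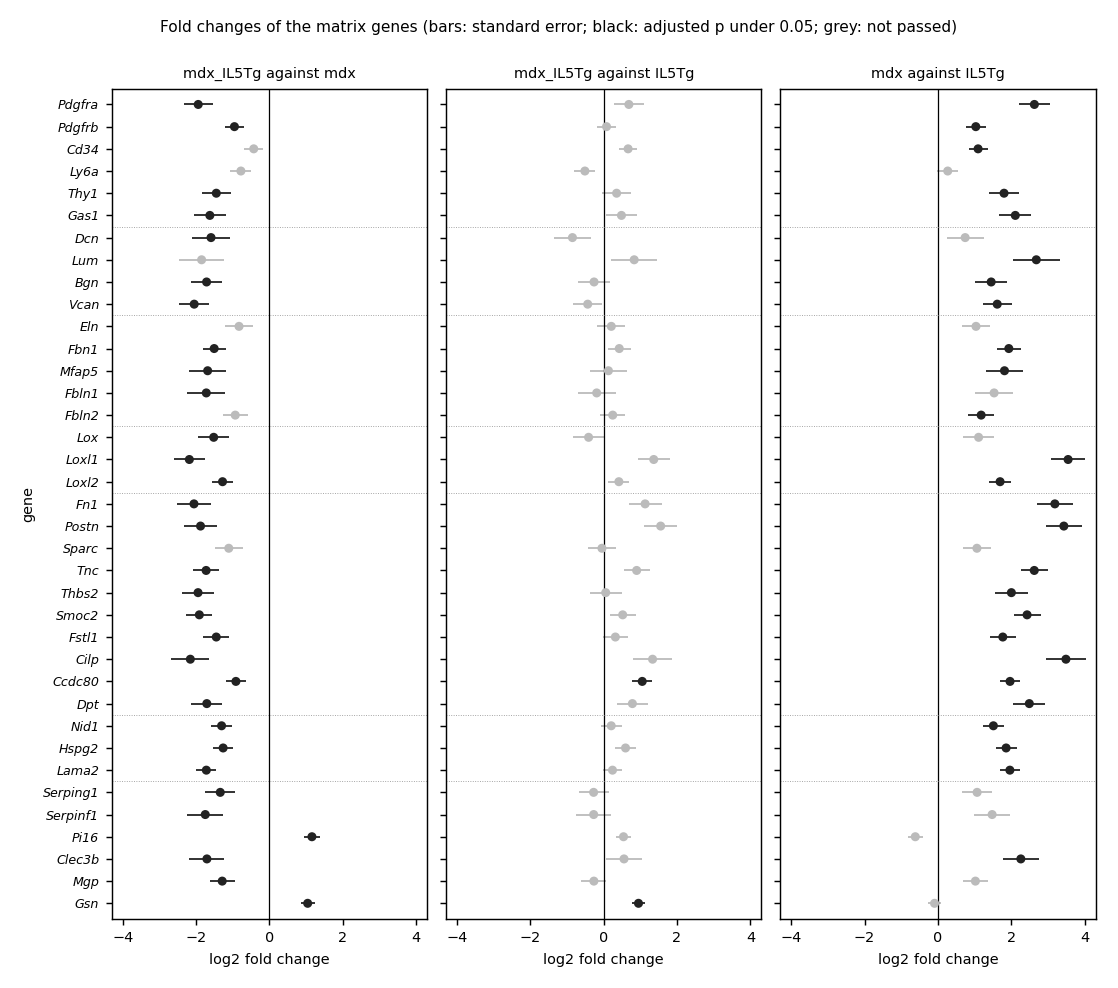
Log2 fold change (horizontal axis) of each of the 37 genes (vertical axis, by role) in the 3 comparisons, with the standard error as a bar and genes past the adjusted p threshold of 0.05 in black. In mdx_IL5Tg against mdx 29 genes lie in black on the lower side and 2, Pi16 and Gsn, on the higher side.

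Fibroblast collagens fell with these genes: all 5 of Col1a1, Col1a2, Col3a1, Col5a1 and Col6a1 were lower in mdx_IL5Tg, with summed levels of 728 to 2947 CPM against 4322 to 10910 CPM in mdx. Of 8 pericyte and smooth muscle markers 6 were lower (158 to 332 CPM summed in mdx_IL5Tg, 410 to 522 CPM in mdx). Of 8 muscle fibre markers 7 were lower (17.3 to 20.5 CPM in mdx_IL5Tg, 58.8 to 140 CPM in mdx). Of 12 macrophage markers 9 were lower and 1, Adgre1, was higher (2581 to 2802 CPM in mdx_IL5Tg, 1845 to 2541 CPM in mdx). That sum was dominated by Adgre1, which eosinophils also express. Of 10 endothelial markers 1 was lower, with sums over the list of 355 to 825 CPM in mdx_IL5Tg and 845 to 957 CPM in mdx. Of 5 muscle stem cell markers 3 were lower (26.3 to 44.0 CPM in mdx_IL5Tg, 36.5 to 51.8 CPM in mdx, a sum mostly of Vcam1), and Myf5 was at 0 in mdx S5. Of 3 tendon markers 1 was lower (8.67 to 14.8 CPM in mdx_IL5Tg, 21.2 to 30.5 CPM in mdx). Of 12 eosinophil markers 4 were higher (5515 to 6005 CPM in mdx_IL5Tg, 2437 to 3202 CPM in mdx). The part of these other cell types' RNA in the differences of the matrix genes was not tested.

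The count of 29 changed when single libraries were left out, and so did the share of all genes. It was 6 without mdx_IL5Tg S1 (2.63% of all genes lower), 8 without mdx S4 (3.73%), 14 without mdx_IL5Tg S3 (5.80%) and 18 without mdx S6 (5.61%). The median log2 fold change over the 37 genes was -1.33, -1.17, -1.175 and -1.51 in those fits, and Gsn and Pi16 passed in each. Without mdx S5 and IL5Tg S7 the counts were 24 lower and 2 higher, against 13.1% and 14.1% of all genes. Pdgfra, Vcan, Loxl1, Tnc, Smoc2, Lama2, Pi16 and Gsn passed in all 18 alternatives, and the direction was the same in all of them for all 37 genes.

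The second comparison, mdx against IL5Tg, sets the dystrophic group without the transgene against the transgenic group, so that by the titles both the background and the transgene differ. In mdx libraries 26 of the 37 genes were higher than in IL5Tg libraries, and 11 did not pass, against 11.8% of all genes higher and 8.96% lower by the same edgeR rule. No gene passed as lower; at an unadjusted p under 0.05 edgeR gave 1 lower gene, Pi16, against 16.5% of all genes, as did DESeq2 and limma voom after adjustment, and voom with quality weights gave 2. The median log2 fold change was 1.77 over the 37 genes and 0.013 over all genes. The mdx libraries lay above all IL5Tg libraries for 31 genes, a pattern found in 22.2% of all genes, and below them for 1 gene, a pattern found in 19.7%. Each pair of the 3 comparisons shares a group of libraries, so their values stand side by side and are not separate evidence.

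In mdx 9 of 10 adhesive and matricellular genes and 2 of 3 cross-linking enzymes were higher, and the highest log2 fold changes of the 37 genes were those of Loxl1, Cilp, Postn and Fn1. Loxl1 was at 20.3, 20.2 and 14.6 CPM in mdx against 1.06, 1.14 and 2.54 CPM in IL5Tg S7, S8 and S9, an 11.7-fold higher level (log2 3.55 ± 0.46, edgeR adjusted p = 0.000615). Cilp was at 79.4, 58.5 and 42.3 CPM in mdx against 4.83, 2.76 and 8.499 CPM in IL5Tg (log2 3.49 ± 0.56). Postn was at 377, 167 and 144 CPM in mdx against 24.1, 16.3 and 23.5 CPM in IL5Tg (log2 3.43 ± 0.49, edgeR adjusted p = 0.00128). In each of these genes the lowest mdx library was several times the highest IL5Tg library. Fn1 was at 583, 243 and 362 CPM in mdx against 44.6, 25.5 and 60.4 CPM in IL5Tg, 9.12-fold higher (log2 3.19 ± 0.48, edgeR adjusted p = 0.00168). Tnc was at 149, 114 and 92.7 CPM in mdx against 17.3, 15.2 and 25.2 CPM in IL5Tg (log2 2.63 ± 0.37, edgeR adjusted p = 0.000969). Dpt, Smoc2, Thbs2, Ccdc80 and Fstl1 had log2 fold changes of 2.49, 2.43, 2.00, 1.97 and 1.77. Sparc, at 613, 534 and 471 CPM in mdx against 274, 170.4 and 331 CPM in IL5Tg, did not overlap but did not pass (edgeR adjusted p = 0.0714).

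Of the surface genes 5 of 6 were higher, led by Pdgfra at 18.7, 17.8 and 12.5 CPM in mdx against 2.69, 1.95 and 3.28 CPM in IL5Tg (log2 2.63 ± 0.41, edgeR adjusted p = 0.00175). Ly6a, the exception, was at 28.5, 24.4 and 27.0 CPM in mdx against 26.8, 16.4 and 23.3 CPM in IL5Tg, and its groups overlapped (log2 0.27, edgeR adjusted p = 0.530). Of the proteoglycans 3 of 4 were higher: Lum by 2.68 ± 0.65, Vcan by 1.62 ± 0.40 and Bgn by 1.45 ± 0.43 on the log2 scale. Dcn, at 122, 32.7 and 72.9 CPM in mdx against 49.8, 26.9 and 59.7 CPM in IL5Tg, overlapped between the groups and did not pass (edgeR adjusted p = 0.313). Of the elastic fibre genes Fbn1, Mfap5 and Fbln2 were higher (log2 1.93, 1.81 and 1.18), while Eln and Fbln1 did not pass (edgeR adjusted p = 0.0762 and 0.0571).

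All 3 basement membrane genes were higher. Hspg2 was at 442, 372 and 444 CPM in mdx against 133, 97.7 and 116 CPM in IL5Tg (log2 1.86 ± 0.28, edgeR adjusted p = 0.00153). Lama2 was at 49.4, 38.4 and 33.9 CPM in mdx against 10.9, 9.05 and 11.4 CPM in IL5Tg (log2 1.96 ± 0.28), and Nid1 had a log2 fold change of 1.51. Among the secreted proteins Clec3b alone passed (log2 2.26 ± 0.50, edgeR adjusted p = 0.0101). Serpinf1, Mgp and Serping1 had positive values that did not pass (log2 1.48, 1.02 and 1.07, adjusted p = 0.0545, 0.0556 and 0.0848). Pi16 was at 43.5, 71.2 and 44.7 CPM in mdx against 79.3, 71.7 and 93.5 CPM in IL5Tg, with every mdx library below every IL5Tg library, and did not pass (log2 -0.62 ± 0.21, edgeR adjusted p = 0.0591). Gsn was at 253, 371 and 254 CPM in mdx against 301, 267 and 369.7 CPM in IL5Tg, and the overlapping groups gave a log2 fold change of -0.094 ± 0.19 (edgeR adjusted p = 0.747).

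**Figure D3:**
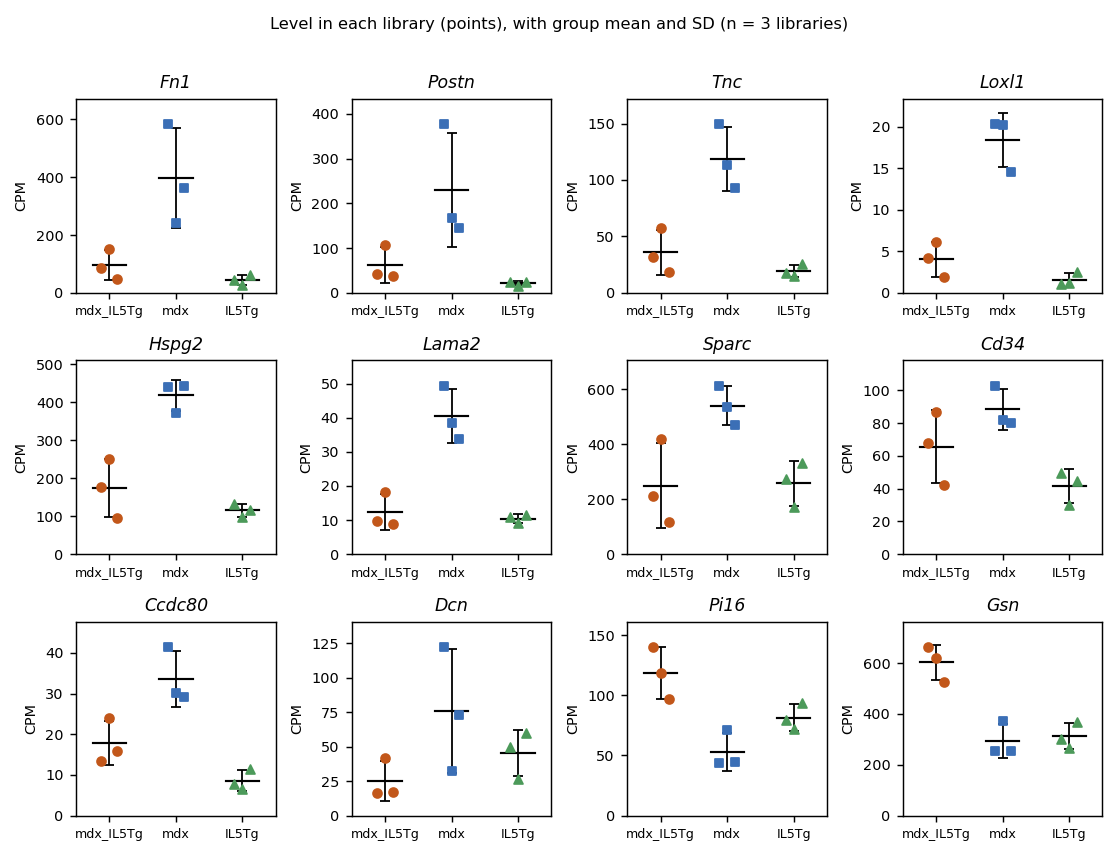
CPM (vertical axis) of 12 of the genes in each library, as points by group, with the group mean and SD as lines (n = 3). The mdx libraries stand highest for Fn1, Postn, Tnc, Loxl1, Hspg2 and Lama2, the groups overlap for Dcn, and the mdx_IL5Tg libraries stand highest for Pi16 and Gsn.

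Markers of other cells also differed. All 5 fibroblast collagens were higher, with sums of 4322 to 10910 CPM in mdx and 927 to 2181 CPM in IL5Tg, as were all 8 muscle fibre markers (58.8 to 140 CPM in mdx, 5.40 to 8.37 CPM in IL5Tg). So were 10 of 12 macrophage markers (1845 to 2541 CPM in mdx, 1664 to 1982 CPM in IL5Tg), of which Ms4a7 was at 0 in IL5Tg S9. Of 10 endothelial markers 4 were higher (845 to 957 CPM in mdx, 560 to 784 CPM in IL5Tg), and of 8 pericyte and smooth muscle markers 4 (410 to 522 CPM in mdx, 251 to 383 CPM in IL5Tg). Of 5 muscle stem cell markers 3 were higher and 1, Vcam1, was lower (36.5 to 51.8 CPM in mdx, 65.8 to 169 CPM in IL5Tg, a sum mostly of Vcam1). Of 3 tendon markers 1 was higher (21.2 to 30.5 CPM in mdx, 12.1 to 12.5 CPM in IL5Tg). Of 12 eosinophil markers 6 were lower (2437 to 3202 CPM in mdx, 5990 to 16140 CPM in IL5Tg). Within that sum Prg2 alone was at 79.3 to 503 CPM in mdx and 1611 to 6997 CPM in IL5Tg. The mdx libraries lay below all IL5Tg libraries for 7 of the 12, a pattern found in 19.7% of all genes. Ccr3, at 809 to 1134 CPM in mdx and 828 to 1064 CPM in IL5Tg, overlapped, as did Il5ra. The part of these cell types' RNA in the differences of the matrix genes was not tested. The count of 26 was 21 without mdx S5 and IL5Tg S7 (9.43% of all genes higher) and 19 to 31 with 1 library left out (5.71% to 11.7%), and 16 genes passed in all 18 alternatives, among them Pdgfra, Loxl1, Fn1, Postn, Tnc, Cilp, Hspg2 and Lama2.

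The third comparison, mdx_IL5Tg against IL5Tg, sets the group titled with both the mdx background and the transgene against the group titled with the transgene alone. In mdx_IL5Tg libraries 2 of the 37 genes, Gsn and Ccdc80, were higher than in IL5Tg libraries and 35 did not pass, against 4.35% of all genes higher and 2.87% lower. No gene passed as lower, and edgeR gave 0 lower genes at an unadjusted p under 0.05, as DESeq2 and limma voom did after adjustment. At an unadjusted p under 0.05 edgeR gave 9 higher genes, and 13.5% of all genes were higher and 14.2% lower by that rule. The median log2 fold change was 0.35 over the 37 genes and -0.050 over all genes. The mdx_IL5Tg libraries lay above all IL5Tg libraries for 4 genes, Gsn, Pi16, Postn and Ccdc80, a pattern found in 19.4% of all genes. The 2 calls among the 37 genes were thus near the share over all genes, and the 4 without overlap were below theirs.

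Gsn was at 663, 619 and 527 CPM in mdx_IL5Tg against 301, 267 and 369.7 CPM in IL5Tg, 1.93-fold higher (log2 0.95 ± 0.19, edgeR adjusted p = 0.0222). Ccdc80 was at 13.5, 23.9 and 15.98 CPM in mdx_IL5Tg against 7.78, 6.52 and 11.5 CPM in IL5Tg (log2 1.05 ± 0.27, edgeR adjusted p = 0.0436), and at 41.5, 30.1 and 29.1 CPM in mdx. Ccdc80 thus had 3 separate levels, highest in mdx, while the mdx and IL5Tg ranges of Gsn overlapped. Both calls ended without mdx_IL5Tg S1, mdx_IL5Tg S2, IL5Tg S7 or IL5Tg S8, and that of Ccdc80 also with library totals only, with voom quality weights and without mdx S5 and IL5Tg S7. Over all alternatives the highest adjusted p was 0.113 for Gsn and 0.111 for Ccdc80. The count of 2 was 5 with DESeq2 (7.6% of all genes higher), 9 without mdx_IL5Tg S3 (5.62%) and 1 without mdx S5 and IL5Tg S7 (6.80%).

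Of the genes that did not pass, Postn came closest, with 41.1, 108 and 38.2 CPM in mdx_IL5Tg against 24.1, 16.3 and 23.5 CPM in IL5Tg. The libraries did not overlap, and the difference did not pass (log2 1.55 ± 0.46, edgeR adjusted p = 0.0655). Loxl1, Cilp and Fn1 had log2 values of 1.36 ± 0.44, 1.33 ± 0.52 and 1.13 ± 0.45, with overlapping groups. Pi16 was at 140.2, 119 and 96.6 CPM in mdx_IL5Tg against 79.3, 71.7 and 93.5 CPM in IL5Tg (log2 0.54 ± 0.21, edgeR adjusted p = 0.126). Dcn, with 16.5, 41.8 and 17.2 CPM in mdx_IL5Tg against 49.8, 26.9 and 59.7 CPM in IL5Tg, had the lowest value of the 37 genes and did not pass (log2 -0.85 ± 0.50, edgeR adjusted p = 0.302). The basement membrane genes Hspg2, Lama2 and Nid1 had log2 values of 0.59, 0.24 and 0.20, and Sparc, at 212, 419 and 118 CPM in mdx_IL5Tg against 274, 170.4 and 331 CPM in IL5Tg, one of -0.049 ± 0.38. The remaining genes lay between -0.51 for Ly6a and 0.90 for Tnc. A difference that did not pass is not shown to be absent, since the standard errors ran from 0.19 to 0.62 on the log2 scale.

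Among other cell types' markers, the 5 fibroblast collagens had 728 to 2947 CPM summed in mdx_IL5Tg and 927 to 2181 CPM in IL5Tg, and none of the 5 passed with edgeR. Of 8 muscle fibre markers 4 were higher (17.3 to 20.5 CPM in mdx_IL5Tg, 5.40 to 8.37 CPM in IL5Tg), and of 12 macrophage markers 6 (2581 to 2802 CPM in mdx_IL5Tg, 1664 to 1982 CPM in IL5Tg). Of 5 muscle stem cell markers 1 was higher and 1, Vcam1, was lower (26.3 to 44.0 CPM in mdx_IL5Tg, 65.8 to 169 CPM in IL5Tg, a sum mostly of Vcam1). Of 12 eosinophil markers 0 were higher and 0 lower with edgeR (5515 to 6005 CPM in mdx_IL5Tg, 5990 to 16140 CPM in IL5Tg). The mdx_IL5Tg libraries lay above all IL5Tg libraries for 5 of the 12 and below them for 5. These patterns were found in 19.4% and 16.4% of all genes. The part of these cell types' RNA in the values of Gsn and Ccdc80 was not tested.

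**Figure D4:**
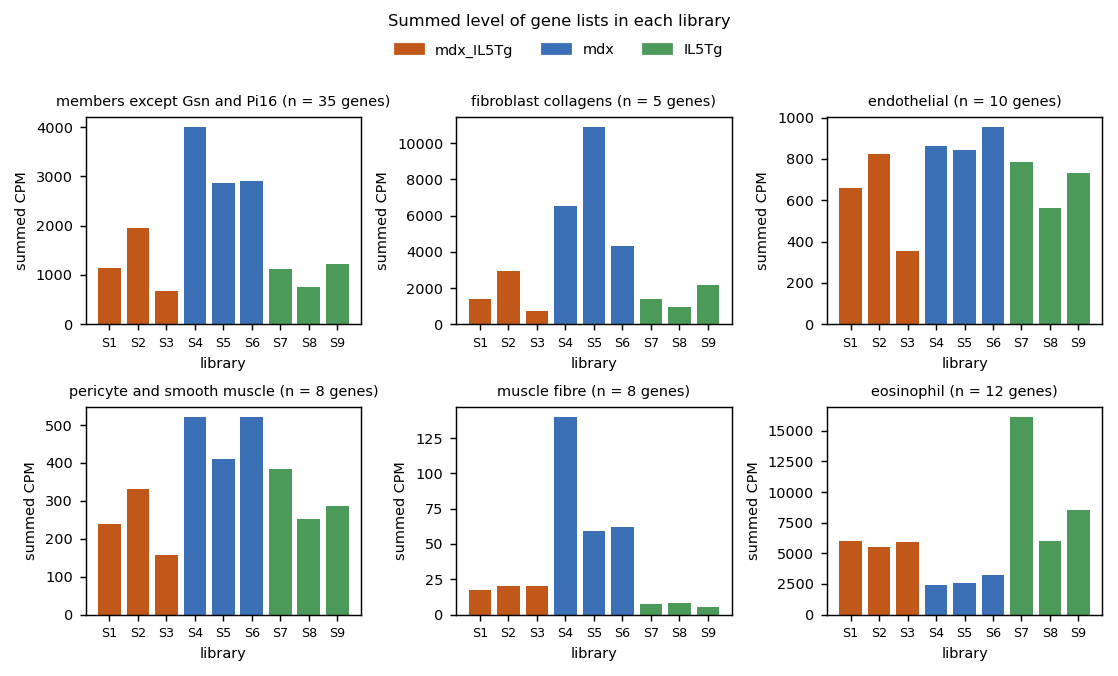
Summed CPM (vertical axis) of 6 gene lists in each of the 9 libraries (horizontal axis, coloured by group). The 35 matrix genes other than Gsn and Pi16, and the fibroblast collagens, are highest in the 3 mdx libraries, while eosinophil markers are highest in IL5Tg S7, at 16140 CPM. Prg2 alone gave 6997 CPM of that sum.

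Within groups, most of the genes ranked the libraries alike. Among mdx_IL5Tg libraries S2 was highest for 35 of the 37 genes and S3 lowest for 33, and the exceptions at the top were Gsn and Pi16, highest in S1. The highest library was a median of 2.83 times the lowest in mdx_IL5Tg, from 1.26 for Gsn to 5.49 for Fbln1, against a median of 1.59 in mdx and 1.66 in IL5Tg. Endothelial markers followed the same order in that group, with 659, 825 and 355 CPM summed in S1, S2 and S3, as did the pericyte and smooth muscle markers with 238, 332 and 158 CPM and the fibroblast collagens with 1418, 2947 and 728 CPM. Eosinophil markers varied less, at 6005, 5515 and 5913 CPM. Among mdx libraries S4 was highest for 30 genes, and S5 for Gas1, Eln, Fbn1, Fbln2, Pi16 and Gsn. There the fibroblast collagens were highest in S5, with 6527, 10910 and 4322 CPM summed in S4, S5 and S6. Endothelial markers, at 863, 845 and 957 CPM, were highest in S6. Pericyte and smooth muscle markers were at 522, 410 and 521 CPM. Among IL5Tg libraries S8 was lowest for 34 genes and S9 highest for 27. Fibroblast collagens followed that order, with 1366, 927 and 2181 CPM summed in S7, S8 and S9. Endothelial markers (784, 560 and 731 CPM) and pericyte and smooth muscle markers (383, 251 and 285 CPM) were also lowest in S8, but highest in S7. The part of these other cells' RNA in the spread was not tested.

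Levels of different genes were compared per kilobase of exon, since longer transcripts give more counts, and the 37 genes had a median exon length of 5405 bases against 3995 for all genes. Per kilobase, the median over the 37 genes was 3.94 CPM in mdx_IL5Tg, 10.02 in mdx and 2.63 in IL5Tg, against 1.69 in mdx_IL5Tg, 2.00 in mdx and 1.90 in IL5Tg over 15879 genes with a length. Gsn had the highest length-scaled level in mdx_IL5Tg, at 191 ± 22.0 CPM per kb, and in IL5Tg, at 99.0 ± 16.6, and Sparc in mdx, at 142 ± 18.8 (SD, n = 3). In mdx Sparc exceeded Gsn, at 92.8 ± 21.5, whereas in mdx_IL5Tg it was at 65.9 ± 40.7. Next in mdx came Fn1 at 33.9 ± 14.8, Hspg2 at 29.3 ± 2.85, Postn at 26.4 ± 14.7 and Eln at 26.4 ± 9.08 CPM per kb, which do not differ beyond their spread. The fibroblast receptor Pdgfra, at 0.423 ± 0.274 in mdx_IL5Tg, 1.63 ± 0.335 in mdx and 0.263 ± 0.0666 in IL5Tg, and the microfibril gene Fbln1, at 0.354 ± 0.228 in mdx_IL5Tg, 1.18 ± 0.284 in mdx and 0.408 ± 0.159 in IL5Tg, were among the lowest in every group.

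**Figure D5:**
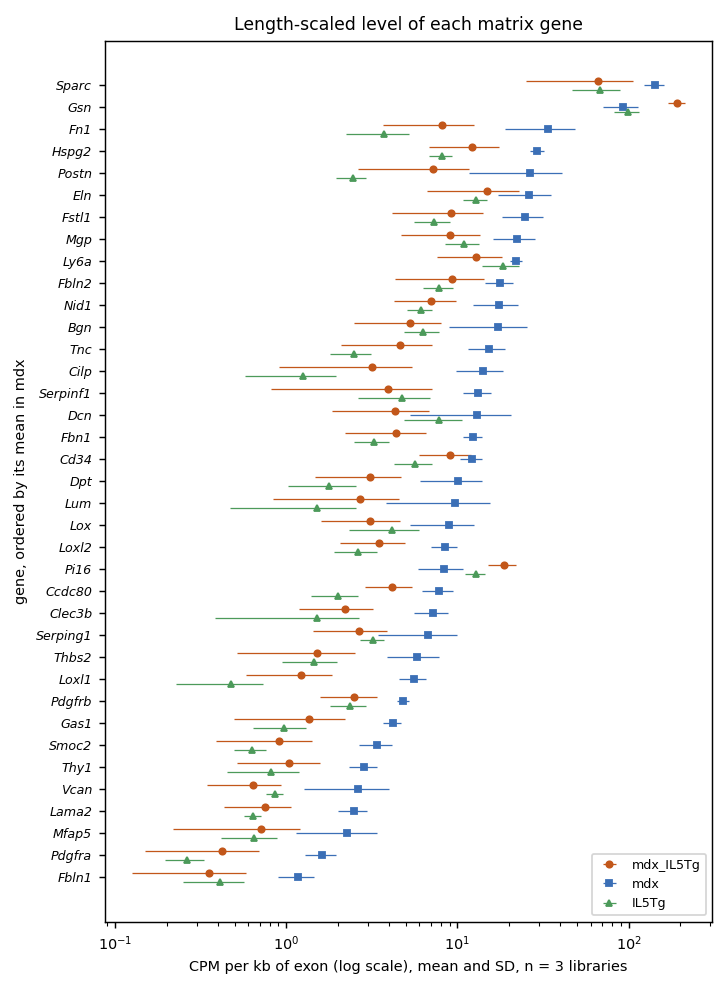
Mean CPM per kilobase of exon on a log axis (horizontal), with the SD over 3 libraries as a bar, for each of the 37 genes (vertical, ordered by the mdx mean) in the 3 groups. Sparc and Gsn lie above the rest, and Gsn and Pi16 are the genes whose mdx_IL5Tg point lies right of the mdx point.

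By position, Dcn and Lum lie 47.0 kb apart on chromosome 10, and Thbs2 and Smoc2 261 kb apart on chromosome 17 (GRCm38). Both pairs had similar log2 values in mdx_IL5Tg against mdx, of -1.59 and -1.85 for Dcn and Lum and -1.95 and -1.91 for Thbs2 and Smoc2. In mdx against IL5Tg Dcn and Lum differed more, at 0.74 ± 0.50 and 2.68 ± 0.65, a difference between genes that was not tested. Exons of 12 of the 37 genes overlap another annotated gene, mostly an antisense RNA, and the strand setting of the counting is not given in the sources used here. No overlapping gene had 5% or more of its member's counts.

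The other matrix and fibroblast genes, 62 in all, were counted in the same fit. In mdx_IL5Tg against mdx 41 were lower and 1 was higher, and the 41 became 8, 14, 21 and 25 without mdx_IL5Tg S1, mdx S4, mdx_IL5Tg S3 and mdx S6 and 30 to 50 without each of the others. It was 27 with only the libraries of these groups in the fit and 33 without mdx S5 and IL5Tg S7. Of all genes 11.5% were lower and 10.1% higher. The share lower became 2.63%, 3.73%, 5.80% and 5.61%, then 7.1% to 12.3%, 7.67% and 13.1% in the same fits. Tnxb, a tenascin of collagen fibrils, was at 15.7 ± 8.20 CPM in mdx_IL5Tg and 63.3 ± 14 CPM in mdx (SD, n = 3 each; log2 -2.01, edgeR adjusted p = 0.00445). Ltbp1, which holds latent TGF-beta in the matrix, was at 7.15 ± 2.69 CPM in mdx_IL5Tg and 19.0 ± 0.856 CPM in mdx (log2 -1.41), and Fbn2, a second fibrillin, fell by 2.31 on the log2 scale. The gene that was higher was Emilin2, an elastic-fibre-associated glycoprotein named here after its values were seen, at 2275 ± 148 CPM in mdx_IL5Tg and 1197 ± 273 CPM in mdx (log2 0.93 ± 0.19, edgeR adjusted p = 0.00764). In mdx against IL5Tg 36 of the 62 were higher (26 to 40 with 1 library left out and 26 without mdx S5 and IL5Tg S7), among them Lamb1, a laminin chain (log2 2.62), Nid2, the second nidogen (log2 2.31), and Fbln7, a fibulin (log2 3.89). Of all genes 11.8% were higher (5.71% to 11.7% with 1 library left out and 9.43% without mdx S5 and IL5Tg S7). Lower genes there numbered 0 with edgeR, at an unadjusted p under 0.05 as well, where 16.5% of all genes were lower. They numbered 1 with edgeR without mdx S5 and IL5Tg S7, 0 with DESeq2 and limma voom, and 1 with voom and quality weights. Of all genes 7.82%, 13.9%, 9.22% and 15.6% were lower in those settings.

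In mdx_IL5Tg against IL5Tg 5 of the 62 were higher (13 without mdx_IL5Tg S3, 3 without mdx S6, and 1 without any one of mdx_IL5Tg S1, mdx_IL5Tg S2 and the IL5Tg libraries; 4 without mdx S5 and IL5Tg S7, and 2 to 10 in the other alternatives). Of all genes 4.35% were higher (0.662% to 9.4% with 1 library left out and 6.80% without mdx S5 and IL5Tg S7). Thbs1, a thrombospondin that activates latent TGF-beta, was at 37370 ± 4460 CPM in mdx_IL5Tg and 16720 ± 3460 CPM in IL5Tg (log2 1.16 ± 0.19, edgeR adjusted p = 0.00972), and at 33170 ± 2680 CPM in mdx. The summed level of the 62 genes, 38350 to 45490 CPM in mdx_IL5Tg, 33980 to 38450 CPM in mdx and 15120 to 22580 CPM in IL5Tg, was therefore mostly Thbs1. Tgfbi, a TGF-beta-induced matrix protein, was at 312 ± 26.1 CPM in mdx_IL5Tg and 213 ± 16.2 CPM in IL5Tg (log2 0.55), and Ltbp2, a relative of Ltbp1 in elastic fibres, at 1.56 ± 0.883 CPM in mdx_IL5Tg and 0.330 ± 0.118 CPM in IL5Tg (log2 2.23). Emilin2 (log2 0.76) and Lamb1 (log2 1.17) were the remaining pair, named after their values were seen. Lower genes numbered 0 with edgeR, 4 at an unadjusted p under 0.05, 1 with DESeq2, 0 with limma voom and 6 with voom and quality weights. Of all genes 2.87%, 14.2%, 7.91%, 4.13% and 13.8% were lower by these rules. With edgeR 1 of the 62 was lower with no filter, and 1 without mdx S5.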

How the data were processed

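The authors deposited expected counts per gene, which RSEM estimated, with no normalisation. Per the submitters' processing notes, the tools were cutadapt 2.10 and STAR 2.5.3, then RSEM 1.3.0, and limma, on build mm10. No source used here gives their settings, annotation or strandedness. The expected counts were rounded, since 6.03% of values were not whole. A column shows its group and an S number, so it could not be matched to a numbered replicate. RSEM divides reads among similar genes by estimation.

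Genes were kept with filterByExpr (minimum count 10). Libraries were scaled with TMM factors, and CPM use them. All 9 libraries entered a single quasi-likelihood fit with robust dispersion (edgeR 4.0.16, R 4.3.3), and Benjamini-Hochberg adjustment ran over 15886 genes with a threshold of 0.05. Standard errors were recovered from the F statistic. P-values set the difference between group means against the spread between libraries within groups, estimated over the 3 groups together. The fit was tested on simulated data. Exon lengths and positions are from GENCODE M21 (GRCm38). Libraries of a group correlated at r 0.973 to 0.993 across genes, and no pair agreed within sampling noise.

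All 37 genes are named, and of the other 62 genes 3 per comparison by smallest p. Members and lists were chosen with earlier results of these data known. There were 18 alternatives. They changed the scaling (RLE factors, or library totals only), the filter (none, or 50 counts in 3 libraries), the test (DESeq2 1.42.0, or limma 3.58.1 voom with or without quality weights) and the libraries (only the groups compared, each of the 9 left out, and IL5Tg S7 and mdx S5 left out together).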

Additional observations from a re-analysis of the deposited data

How the results depend on the processing

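No paired analysis was possible because the columns carry S numbers and not the replicate numbers of the labels. Genes of the 37 called higher in mdx_IL5Tg against IL5Tg numbered 2, against 1 with library totals only, 4 with no filter, 5 with DESeq2, 5 with voom quality weights, 1 without IL5Tg S7 and mdx S5 and 0 to 9 with 1 library left out. The share of all genes moved as well, from 4.35% to 1.96%, 3.26%, 7.6%, 13.2%, 6.80% and 0.662% to 9.4% in the same settings. Genes called lower in mdx_IL5Tg against mdx numbered 29, against 6 to 33 with 1 library left out and 21 to 33 otherwise, and genes called higher numbered 2 throughout. Of all genes 11.5% were lower there, against 2.63% to 12.3% with 1 library left out and 7.3% to 25.2% otherwise. The share of all genes called higher was 10.1%, and 4.7% to 18.6% over the alternatives. Genes called higher in mdx against IL5Tg numbered 26, against 19 to 31 with 1 library left out and 21 to 33 otherwise. Of all genes 11.8% were higher in mdx, against 5.71% to 11.7% with 1 library left out and 7.2% to 19.1% otherwise. Genes called lower there numbered 0, against 1 with no filter, 1 with DESeq2, 1 with limma voom, 2 with voom quality weights, 1 without IL5Tg S7 and mdx S5 and 0 to 1 with 1 library left out. The share of all genes called lower was 8.96%, and 5.2%, 13.9%, 9.22%, 15.6%, 7.82% and 6.1% to 11.9% in those settings. The cause of these changes was not tested.

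With library totals only, the median over all genes moved to -0.27, -0.46 and 0.12 in mdx_IL5Tg against IL5Tg, mdx_IL5Tg against mdx and mdx against IL5Tg, against -0.050, -0.13 and 0.013 with TMM. Directions in mdx_IL5Tg against mdx were the same in every alternative for all 37 genes, in mdx against IL5Tg for 36, and in mdx_IL5Tg against IL5Tg for 21. The sign changes in mdx_IL5Tg against IL5Tg were in genes that did not pass. With library totals only they were Pdgfrb at -0.14, Eln at -0.0017, Mfap5 at -0.067, Thbs2 at -0.15 and Nid1 at -0.0049. With limma voom they were Mfap5 at -0.047 and Thbs2 at -0.073, and with voom quality weights Mfap5 at -0.36 and Thbs2 at -0.092. Without IL5Tg S7 and mdx S5 together, Sparc was at 0.00078. With 1 library left out, the log2 values spanned -0.18 to 0.37 for Pdgfrb, -0.025 to 0.83 for Thy1, -0.035 to 0.92 for Gas1, -0.71 to 0.090 for Bgn, -0.18 to 0.63 for Eln, -0.55 to 0.50 for Mfap5, -0.52 to 0.31 for Fbln1, -0.14 to 0.65 for Fbln2, -0.60 to 0.35 for Sparc, -0.57 to 0.44 for Thbs2, -0.15 to 0.67 for Fstl1, -0.10 to 0.48 for Nid1, -0.12 to 0.48 for Lama2, -0.67 to 0.00054 for Serping1, -1.09 to 0.18 for Serpinf1 and -0.64 to 0.086 for Mgp. In mdx against IL5Tg Gsn spanned -0.30 to 0.0028.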
